A study of Homo sapiens with 4 samples.

Results

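The genes described here are 7 metallothionein genes, MT1A, MT1E, MT1F, MT1G, MT1M, MT1X and MT2A, together with MTF1. They were chosen by gene name from the deposited count table, and all 8 were found among its 60544 genes. The samples were 4 poly(A) RNA libraries of PC3, an established cell line from a human prostate cancer. The series compared METTL3 knockdown with control, METTL3 being the catalytic subunit of the complex that places N6-methyladenosine (m6A) on messenger RNA. The control group was labelled shNC (2 libraries) and the other group sh812 (2 libraries), read as the knockdown because no other label remains. Both groups grew in the same serum-containing medium, and the labels name no added metal or hormone. The labels give a single sh812 construct and do not say whether the libraries of a group came from separate cultures. The p-values therefore measure only the spread between these libraries, which may be technical.

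Metallothioneins are small cysteine-rich proteins that bind zinc and copper through their sulfur atoms and also capture toxic metals such as cadmium. MTF1 is a zinc-sensing transcription factor that binds metal response elements in metallothionein promoters and activates them when free zinc rises. Glucocorticoids and oxidative stress are further known inducers of these genes, and prostate epithelium is known for its unusual zinc handling.

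METTL3 itself gave 1682 and 1379 counts in shNC and 269 and 313 in sh812, in the direction of the labels. Total counts per library ran from 31450648 to 37041330. All 6 epithelial markers (KRT8, KRT18, KRT19, EPCAM, CDH1 and ITGA6) had a mean of at least 1 CPM (counts scaled to library size, as CPM throughout). They summed to 1024 to 1120 CPM in shNC and 1178 to 1226 CPM in sh812, with KRT18, EPCAM and CDH1 called higher. Of 6 markers of androgen-dependent luminal prostate cells, 4 were detected and KLK2 and KLK3 were at 0 in every library. The summed level of the 6 was 30.7 to 32.4 CPM in shNC and 12.9 to 15.3 CPM in sh812, with TMPRSS2 called lower. The part of these shifts in the results below was not tested. Of 5 leukocyte markers 4 were detected, with CD3E at 0 in every library, and they summed to 0.822 to 1.11 CPM in shNC and 0.627 to 0.950 CPM in sh812. All 4 endothelial markers were detected and summed to 41.7 to 42.6 CPM in shNC and 44.0 to 50.4 CPM in sh812. Of these PECAM1 was called higher and KDR lower, while CDH5 and VWF had at most 6 counts. All 6 fibroblast markers were detected and summed to 54.8 to 57.1 and 48.5 to 55.4 CPM in the same order, with COL1A2 called higher and COL3A1 lower.

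The 7 metallothionein genes lie within 76.0 kb of chromosome 16 (56608199 to 56684196, GRCh38, positions from GENCODE 29 matched by Ensembl identifier), and MTF1 lies on the minus strand of chromosome 1 (37809567 to 37859620). From the start of the cluster the order was MT2A, MT1E, MT1M, MT1A, MT1F, MT1G and MT1X, with MT1G alone on the minus strand. Each metallothionein gene has 3 exons in its representative transcript and a coding sequence of 186 bases. Of the 61 codons before the stop, 20 (32.8%) were TGC or TGT, the codons of cysteine, in each of the 7 genes. The coding sequences of the 3 most abundant metallothionein members are shown because they carry both the cysteine pattern and the likeness between copies. Each comes from the GENCODE 29 transcript, 5′ to 3′, with the TGC and TGT codons in capitals.
MT2A: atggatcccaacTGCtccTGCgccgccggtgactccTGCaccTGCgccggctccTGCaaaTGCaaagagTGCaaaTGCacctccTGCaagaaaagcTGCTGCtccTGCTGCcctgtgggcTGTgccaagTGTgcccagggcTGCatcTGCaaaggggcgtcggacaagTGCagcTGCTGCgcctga
MT1X: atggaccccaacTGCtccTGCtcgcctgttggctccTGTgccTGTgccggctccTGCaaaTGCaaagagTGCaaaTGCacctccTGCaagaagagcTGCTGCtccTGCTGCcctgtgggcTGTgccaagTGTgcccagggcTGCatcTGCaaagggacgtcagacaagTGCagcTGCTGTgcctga
MT1F: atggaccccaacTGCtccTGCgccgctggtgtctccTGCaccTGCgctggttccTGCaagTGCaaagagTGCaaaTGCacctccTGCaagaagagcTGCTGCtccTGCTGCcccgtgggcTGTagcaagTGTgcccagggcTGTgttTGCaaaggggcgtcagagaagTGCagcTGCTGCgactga
MT2A and MT1X were identical at 172 of 186 aligned coding bases, MT2A and MT1F at 170, and MT1X and MT1F at 165. Over all 21 pairs the identity ran from 88.7% (MT1F with MT1X) to 95.2% (MT1G with MT2A).

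This likeness bears on how far the counts of single copies can be separated. Windows of 50 bases that also occur in another gene's transcript made up 4.88% of the MT2A transcript, 3.59% of MT1F, 7.05% of MT1M, 5.34% of MT1E, 5.76% of MT1A and 20.2% of MT1G. For MT1X the share was 45.1%, and at 75 bases it was 31.6%, shared with MT1G, MT1XP1 and AC026461.1. AC026461.1 is a noncoding gene that overlaps MT1X on the same strand, and it had 0 counts in every library. That 0 does not show how reads in the overlap were counted. At 150 bases, the read length, no window of MT2A, MT1F, MT1M, MT1E, MT1A or MT1G was shared, and 5.65% of those of MT1X were shared, with AC026461.1. How the authors' counting treated reads that fit several copies is not given in the sources used here. The values of the low copies and of MT1X are therefore uncertain.

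Metal response elements were looked for in the 250 bases before the RefSeq gene start (GRCh38.p14). Of the 8 members, MT2A, MT1X and MTF1 had an entry in the promoter table. The core searched was TGCACNC or TGCGCNC on both strands, with overlapping matches counted separately. The promoters of the 2 metallothionein members are shown because these elements are where MTF1 acts. Matches are in capitals, 5′ to 3′ on the plus strand, and a match to the opposite strand reads as its reverse complement.
MT2A, chr16:56608334-56608583: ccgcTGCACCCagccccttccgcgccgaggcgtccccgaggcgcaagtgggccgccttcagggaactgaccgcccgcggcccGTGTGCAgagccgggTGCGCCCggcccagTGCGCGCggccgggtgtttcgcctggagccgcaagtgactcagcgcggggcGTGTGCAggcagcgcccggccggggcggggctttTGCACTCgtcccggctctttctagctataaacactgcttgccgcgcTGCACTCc
MT1X, chr16:56682220-56682469: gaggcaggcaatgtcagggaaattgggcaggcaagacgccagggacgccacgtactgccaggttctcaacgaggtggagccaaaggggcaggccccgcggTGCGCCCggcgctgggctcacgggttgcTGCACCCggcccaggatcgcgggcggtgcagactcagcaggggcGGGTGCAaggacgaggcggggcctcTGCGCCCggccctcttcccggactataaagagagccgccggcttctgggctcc
The MT2A window held 7 matches and the MT1X window 4, while that of MTF1 held 0. Of 35116 promoter windows of this length, 24.8% held at least 1 match, 0.370% at least 4 and 0.0313% at least 7. Outside the members, the window of MT1H held 8 matches and that of MT1B 3. MT1H had at most 9 counts in a library and MT1B had 0 in each. One match began 54 bases before the start in MT2A and one 53 bases before it in MT1X, and none of the printed matches overlapped another. GENCODE 29 also places the first exon of transcript MT2A-201 from base 56608199 on, which is upstream of the RefSeq start. A match describes the letters and is no measurement of MTF1 binding.

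**Figure D1:**
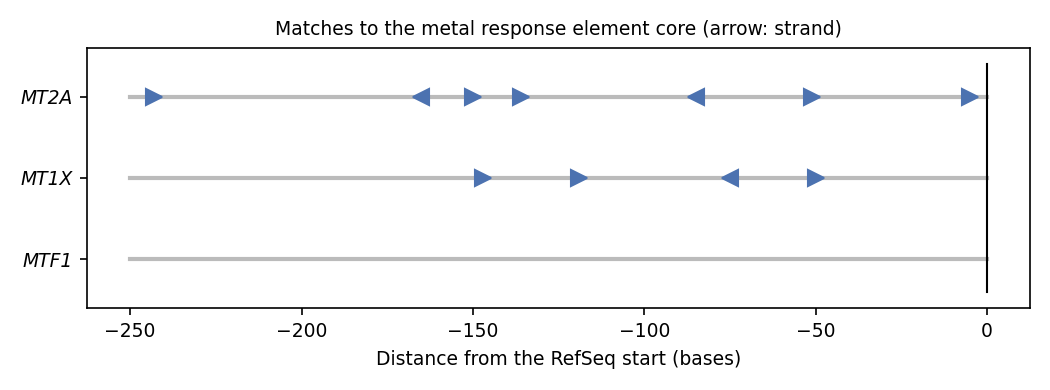
Position of each match to the metal response element core in the 250 bases before the RefSeq start of MT2A, MT1X and MTF1 (horizontal axis: bases from the start; arrowheads point right for the plus strand and left for the minus strand). MT2A has 7 matches, MT1X 4 and MTF1 0.

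Nearly all metallothionein RNA in these cells was MT2A, whatever the group. It took 98.7% of the counts of the 7 metallothionein genes in both shNC libraries, and 98.4% and 98.3% in sh812 replicates 1 and 2. With a mean of 1136 CPM it ranked 75 of 60544 genes. Compared per length, as CPM per kb of merged exons, MT2A stood at 963 and 1014 in shNC and at 756 and 765 in sh812. The next was MT1X, at 5.31 and 5.32 in shNC and 4.56 and 5.03 in sh812. MT1F followed with 2.97 and 3.50 in shNC and 3.92 and 4.14 in sh812. MTF1 had 3.80 and 3.81 in shNC and 3.30 and 3.79 in sh812. By this length MT1F and MTF1 changed places between groups. Their order depends on the length used, so they are not ordered here. The merged exons of MT1F cover 1889 bases and its representative transcript 690, against 8024 and 7972 for MTF1. Those of MT2A (1299) and MT1X (1773) span the whole gene, against representative transcripts of 786 and 450 bases. MT1M (0.326 to 1.06) and MT1E (0.108 to 0.602) overlapped each other per kb. MT1A (0 to 0.216) and MT1G (0 to 0.211) were lowest, and they overlapped each other and the lower MT1E values.

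**Figure D2:**
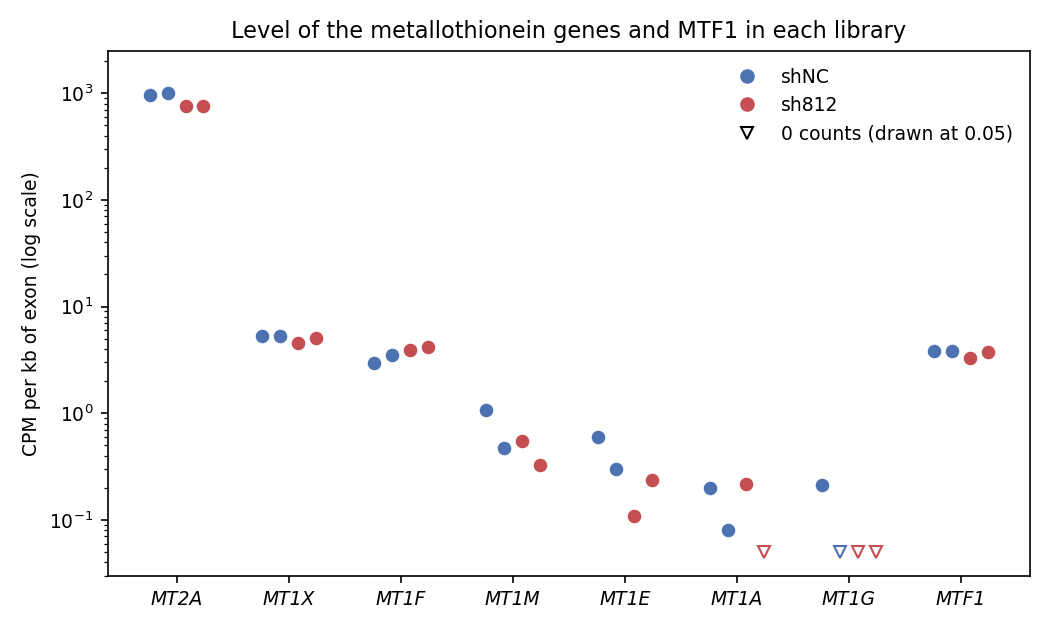
Level of each gene in each library, as CPM per kb of merged exons on a log scale; each point is 1 library, blue for shNC and red for sh812, and open triangles are libraries with 0 counts. MT2A stands at 756 to 1014, while no other metallothionein gene shown exceeds 5.32.

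MT2A (ENSG00000125148) was lower in the sh812 libraries. Its counts were 47427 and 41661 in shNC and 34454 and 35567 in sh812, or 1250 and 1317 CPM against 981.5 and 993.9 CPM. Both sh812 libraries lay below both shNC libraries, and the gap between the groups was wider than the spread within either. Mean levels were 1284 ± 47.4 (shNC) and 987.7 ± 8.74 (sh812) CPM (SD, n = 2), and the fitted level in sh812 was 76.9% of control. On the log2 scale the difference was -0.38 (SE 0.05). The quasi-likelihood test of edgeR gave it a Benjamini-Hochberg adjusted p of 5.85e-05. In bulk RNA a lower level per cell and fewer cells with a high level cannot be told apart. Among the 272 genes with a mean of at least 500 CPM, 92 were called higher and 20 lower, and 3 of the 272, MT2A included, had a log2 fold change as low as that of MT2A.

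MT2A was the only member called. Of the 8 members, 6 passed the low-count filter, and of these 1 was called lower and 0 higher, at an adjusted p under 0.05. Over all 16802 genes tested, 5.42% were called lower, 5.43% higher and 10.8% either way. At an unadjusted p under 0.05 the members again gave 1 lower and 0 higher in edgeR, where 12.9% of all genes tested were lower and 11.9% higher. DESeq2 and limma-voom also called 1 lower and 0 higher. In 5 of the 6 tested members the groups did not overlap, 4 with sh812 below and 1 with sh812 above, an arrangement that 53.6% of all tested genes showed. The median log2 fold change of the 6 was -0.26, beside -0.0056 over all genes tested. MT1E, among the 4 with sh812 below, passed the low-count filter only through its shNC libraries, the group where it was higher. The filter therefore favored its place below and its part in this median.

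MT1X (ENSG00000187193) encodes a further metal-inducible isoform and was the next most abundant metallothionein. It had 357 and 298 counts in shNC and 284 and 319 in sh812, or 9.41 and 9.42 CPM against 8.09 and 8.91 CPM. Both sh812 values lay below the shNC values, but the gap was narrower than the spread between the sh812 libraries. Its log2 fold change was -0.15 (SE 0.14, edgeR adjusted p = 0.575), so a difference was not established.

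MT1F (ENSG00000198417) was the only tested member with a positive log2 fold change. It had 213 and 209 counts in shNC and 260 and 280 in sh812, or 5.62 and 6.61 CPM against 7.41 and 7.82 CPM. Both sh812 libraries were above both shNC libraries, with shNC replicate 2 closer to the sh812 libraries than shNC replicate 1 was. The means were 6.11 ± 0.702 and 7.62 ± 0.295 CPM (SD, n = 2). The log2 difference was 0.32 (SE 0.16), and edgeR's adjusted p was 0.218. The difference did not pass the threshold.

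Ratios taken within a library do not depend on the scaling between libraries. For every 1000 MT2A counts, shNC held 4.49 and 5.02 MT1F counts and sh812 held 7.55 and 7.87. The groups did not overlap, and the mean log2 ratio of MT1F to MT2A differed by 0.70 between them (exact permutation test, two-sided p = 0.333). With 2 libraries against 2, 0.333 is the smallest p that this test can give. The ratio of MT1X to MT2A counts moved less, from 7.53 and 7.15 per 1000 in shNC to 8.24 and 8.97 in sh812, a log2 difference of 0.23. MT1F counts were 0.597 and 0.701 times those of MT1X in shNC and 0.916 and 0.878 times in sh812, a log2 difference of 0.47. These 3 ratios have the same exact permutation p of 0.333, also after Benjamini-Hochberg adjustment, so they remain descriptions.

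**Figure D3:**
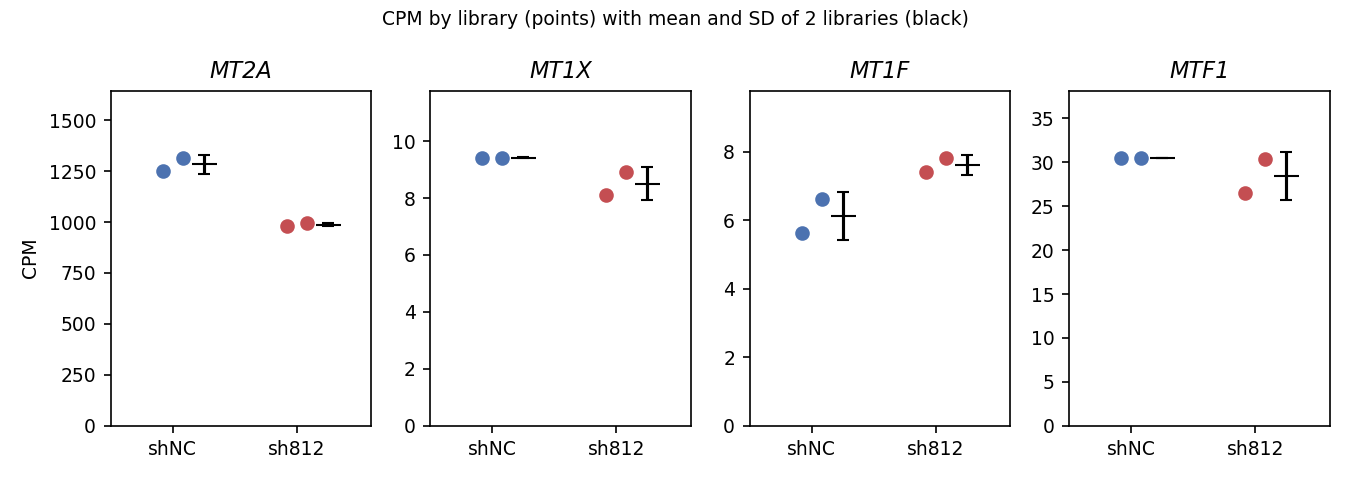
CPM of MT2A, MT1X, MT1F and MTF1 in each library (points; blue shNC, red sh812), with the mean and SD of the 2 libraries of a group in black; each vertical axis starts at 0. MT2A falls from 1284 to 987.7 CPM between the group means, while MT1F has 6.11 and 7.62 CPM and its groups lie close to each other.

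The remaining metallothionein copies were near the limit of detection. MT1M had 38 and 14 counts in shNC and 18 and 11 in sh812, and the groups overlapped. Its log2 fold change was -0.83 (SE 0.59, edgeR adjusted p = 0.421), and it was -0.11 without shNC replicate 1. MT1E had 24 and 10 counts in shNC and 4 and 9 in sh812. It passed the low-count filter through the shNC libraries alone, so a value below control was favored by the filter. The groups of MT1E were separated by 1 count before scaling, and its log2 fold change was -1.37 (SE 0.74, edgeR adjusted p = 0.256). Leaving out shNC replicate 1 gave -0.78, and leaving out sh812 replicate 2 gave -2.04. MT1A, with 3 and 1 counts in shNC and 3 and 0 in sh812, was not tested. MT1G, a copy read from the opposite strand, had 6 and 0 counts in shNC and 0 and 0 in sh812 and was not tested either. A count of 0 allows up to 3 counts, which is 0.0854 and 0.0838 CPM in the sh812 libraries, so no fold is given for MT1A and MT1G. Tested without a low-count filter, they had adjusted p-values of 0.964 and 0.606 in edgeR. In all 4 of these copies shNC replicate 1 had more counts than shNC replicate 2.

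The 13 other metallothionein genes and pseudogenes that were listed had at most a few counts each. Of these, 5 were at 0 in every library and 8 had at least 1 count, with a highest count of 9, in MT1H. None passed the filter, so none was tested. MT3, the isoform known from brain, had 0 and 2 counts in each group, and MT4, known from stratified epithelium, had 0 throughout. MT2P1, a processed pseudogene of MT2A named after its values were seen, had 30 and 45 counts in shNC and 30 and 16 in sh812. It shares 50-base windows with MT2A, its groups overlapped, and its log2 difference was -0.75 (SE 0.50, edgeR adjusted p = 0.373).

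MTF1 (ENSG00000188786), the activator, had 1157 and 966 counts in shNC and 930 and 1087 in sh812. These are 30.5 and 30.6 CPM against 26.5 and 30.4 CPM, so sh812 replicate 1 alone stood apart. The log2 fold change was -0.10 (SE 0.09, edgeR adjusted p = 0.560), and it was -0.01 without sh812 replicate 1. A change in MTF1 RNA was not detectable here.

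Summed over the 7 metallothionein genes, the level was 1267 and 1334 CPM in shNC, against 997.7 and 1011 CPM in sh812. The sum in sh812 was 77.2% of control with the scaling used throughout and 74.9% with library size alone. It follows MT2A, which makes up nearly all of it.

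Changes between these libraries varied with transcript length, within shNC as well as between the groups, and metallothionein transcripts are short. The representative transcripts had 786 bases for MT2A, 690 for MT1F and 450 for MT1X, against 7972 for MTF1. The MT2A and MT1X models begin upstream of the RefSeq start, so their lengths include bases before it. For MT1F this was not checked, as no RefSeq start was available. Shared-window shares, GGACT searches and the length-trend removal for MT2A and MT1X rest on those upstream models. Among the 609 tested protein-coding genes with a transcript under 1000 bases, the median log2 fold change was 0.17, with 145 called higher and 10 lower, and MT2A was one of the 10. Ranked against transcript length, the change between libraries had a Spearman correlation across 12211 genes, which are not independent replicates, of -0.33 between the 2 shNC libraries (replicate 2 against 1) and 0.04 between the 2 sh812 libraries. Between an sh812 library and an shNC library it ran from -0.39 to -0.18. With each library's trend on length removed, the log2 fold change of MT2A was -0.53 (SE 0.05, edgeR adjusted p = 5.29e-08). MT1X then had -0.35 (adjusted p = 0.120), MT1F 0.16 (adjusted p = 0.601) and MTF1 -0.01 (adjusted p = 0.955), all in edgeR. The fall of MT2A was thus no smaller with the trend removed, and the values of MT1X, MT1F and MTF1 moved by more than 1.5 times without passing the threshold.

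**Figure D4:**
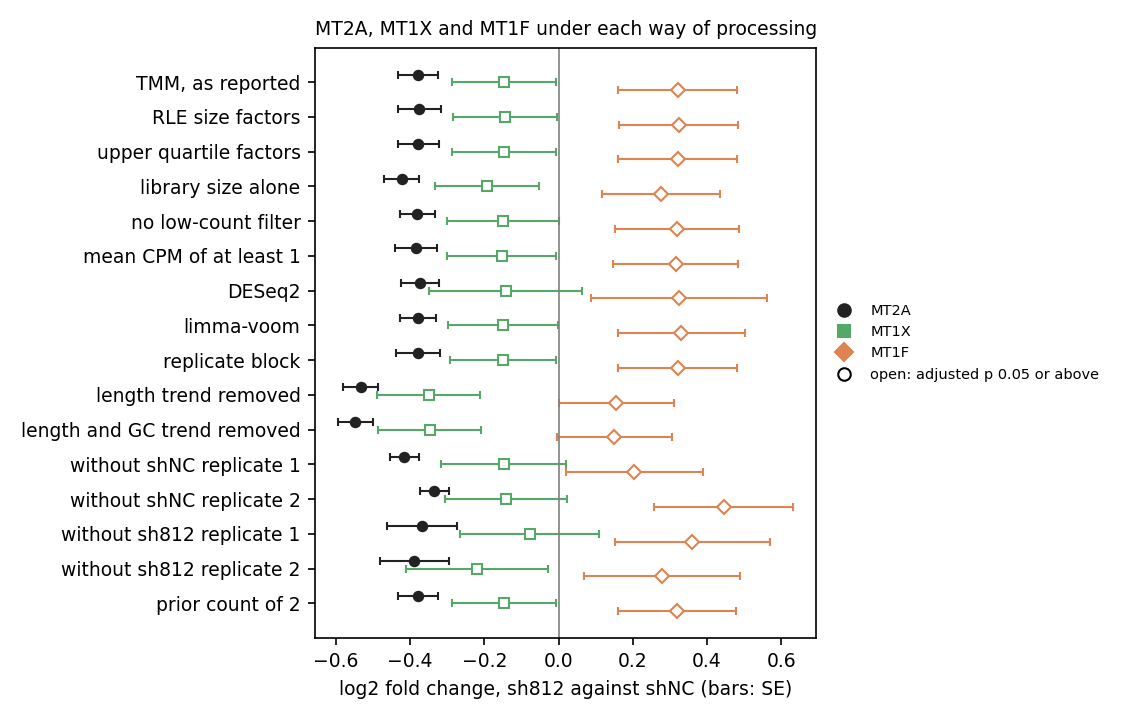
Log2 fold change (sh812 against shNC, horizontal axis) of MT2A, MT1X and MT1F under each way of processing (vertical axis), with bars of 1 SE; filled symbols have an adjusted p under 0.05 and open ones do not. MT2A is filled throughout, between -0.55 and -0.33, and MT1X and MT1F are open throughout.

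Because METTL3 marks RNA, the transcripts were searched for GGACT, a common form of the m6A consensus, on the sense strand. The MT2A transcript held 0 in its 786 bases, as did those of MT1A and MT1G. MT1X and MT1F held 1 each, MT1E and MT1M 2 each, and MTF1 6, or 0.753 per kb. Each site found in a metallothionein transcript lay before the coding sequence. That of MT1X, at transcript base 13, lies within the MT1X promoter window printed above, before the RefSeq start. An RNA that begins at the RefSeq start would not hold it. No RefSeq start was available for MT1E, MT1F and MT1M, so whether their sites also lie before it was not checked. Of 13237 tested protein-coding genes, 91.6% held at least 1, and of the 609 short ones 58.3% did. The search gives letters only, and no m6A was measured in this series.

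Zinc exporters of the SLC30 family move zinc out of the cytosol, and SLC30A1 at the cell surface is a classic MTF1 target beside the metallothioneins. Of 10 genes, 6 were tested, with 0 called in either direction in edgeR and 0 by DESeq2 or limma-voom. At an unadjusted p under 0.05, 3 were lower and 0 higher, beside 12.9% and 11.9% of all genes tested. SLC30A1 had 41.95 and 41.9 CPM in shNC and 38.0 and 35.9 CPM in sh812. Both sh812 values lay below the shNC values, but its log2 fold change of -0.18 (SE 0.08) had an adjusted p of 0.168 in edgeR. The median of the 6 was -0.16.

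Zinc importers of the SLC39 family bring zinc into the cytosol. Of 14 genes, 11 were tested, and 1 was called higher and 0 lower. The called gene was SLC39A4, the importer known from the intestine and from the inherited zinc deficiency acrodermatitis enteropathica. It had 39.4 and 43.9 CPM in shNC and 61.2 and 57.7 CPM in sh812. The groups were well apart, with a log2 difference of 0.51 (SE 0.08, edgeR adjusted p = 0.000128), and the call held in each of 14 alternatives. By DESeq2 and limma-voom 0 importers were called lower, and 1 of the 11 was lower at an unadjusted p under 0.05 in edgeR, beside 12.9% of all genes tested. The median of the 11 was -0.05. The most abundant importers, SLC39A9 and SLC39A7, had log2 fold changes of 0.02 and 0.01.

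Copper handling genes gave calls in both directions. Of 15 genes, 14 were tested, with 2 called higher, 1 lower and a median of 0.09. SLC31A1, the main copper importer, rose from 85.4 ± 2.68 to 98.8 ± 0.189 CPM (SD, n = 2), which is a log2 difference of 0.21 (edgeR adjusted p = 0.0392). STEAP3, a metalloreductase best known for iron uptake, rose from 66.9 ± 0.0311 to 77.8 ± 1.41 CPM (SD, n = 2), which is a log2 difference of 0.22 (edgeR adjusted p = 0.0405). STEAP2, a related metalloreductase, fell from 28.2 ± 4.29 to 20.9 ± 0.294 CPM (SD, n = 2), which is a log2 difference of -0.44 (edgeR adjusted p = 0.00922). The calls of SLC31A1 and STEAP3 were lost with library size alone (edgeR adjusted p = 0.103 and 0.108). Without shNC replicate 1 STEAP2 had -0.27 and lost its call (edgeR adjusted p = 0.134). Leaving out sh812 replicate 1 ended all 3 calls. The copper transporters ATP7A and ATP7B had log2 fold changes of -0.15 and -0.07, and the copper chaperone ATOX1 0.12.

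Genes of the metal and oxidant response, which heavy metals can induce together with metallothioneins, were also split. All 15 were tested, with 3 called higher, 1 lower and a median of 0.05. SELENOH, a selenoprotein, rose from 48.6 ± 2.85 to 62.8 ± 3.55 CPM (SD, n = 2), a log2 fold change of 0.37 (edgeR adjusted p = 0.00284). With the length trend removed it was 0.22 (edgeR adjusted p = 0.0476). The heat shock genes HSPA1A and HSPA1B had log2 differences of 0.24 and 0.26 (edgeR adjusted p = 0.0262 and 0.0286), and they are near-identical copies, so their separate counts are uncertain. With library size alone both lost their call (edgeR adjusted p = 0.0728 and 0.0755). SLC7A11, the cystine importer, fell from 49.4 ± 0.738 to 39.7 ± 1.42 CPM (SD, n = 2), a log2 fold change of -0.32 (edgeR adjusted p = 0.0115). With the length trend removed it had -0.22 and lost its call (edgeR adjusted p = 0.0680). Without sh812 replicate 1, HSPA1A had 0.14, and HSPA1A, HSPA1B and SLC7A11 lost their calls. Without sh812 replicate 2, SELENOH had 0.31 and lost its call (edgeR adjusted p = 0.101), as did HSPA1B and SLC7A11. HMOX1, the heme oxygenase induced by cadmium, had a log2 fold change of -0.21 (edgeR adjusted p = 0.257).

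Glucocorticoid-response genes were examined because MT2A carries a known glucocorticoid response element. Of 13 genes, 10 were tested, with 0 called higher, 1 lower and a median of -0.03. DESeq2 and limma-voom also called 0 higher and 1 lower, and at an unadjusted p under 0.05 in edgeR 2 were higher and 3 lower, beside 11.9% and 12.9% of all genes tested. SGK1, a kinase gene induced by these hormones, had 29.3 and 32.1 CPM in shNC and 20.2 and 23.4 CPM in sh812. The groups did not overlap, and the log2 fold change was -0.49 (SE 0.10, edgeR adjusted p = 0.00232). Without sh812 replicate 1 it was -0.39, with an adjusted p of 0.0935. FKBP5 and PER1, other hormone targets, had log2 fold changes of 0.08 and 0.01, and the receptor gene NR3C1 had -0.16 (edgeR adjusted p = 0.161).

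Genes beside the metallothionein cluster were taken as a check of the locus. Of 10 neighbours, 7 were tested, with 1 called higher, 0 lower and a median of 0.03. NUP93, a nuclear pore gene that begins 45.9 kb beyond MT1X, rose from 96.6 ± 6.73 to 115 ± 3.05 CPM (SD, n = 2), a log2 difference of 0.25 (edgeR adjusted p = 0.0151), a call lost without either sh812 library. BBS2, a gene of the primary cilium 87.9 kb before MT2A, had -0.04 and an adjusted p of 0.829 in edgeR. Of all genes tested 5.42% were called lower, so 0 lower among 7 neighbours is near that background. At an unadjusted p under 0.05 in edgeR, 0 of the 7 were lower, beside 12.9% of all genes tested, and DESeq2 and limma-voom called 0 lower.

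Across these lists, 7 of 63 tested genes were called higher and 3 lower, beside 5.43% and 5.42% of all genes. All 10 are named above. Leaving out sh812 replicate 1 left 2 higher and 0 lower, and leaving out sh812 replicate 2 left 2 higher and 2 lower.

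**Figure D5:**
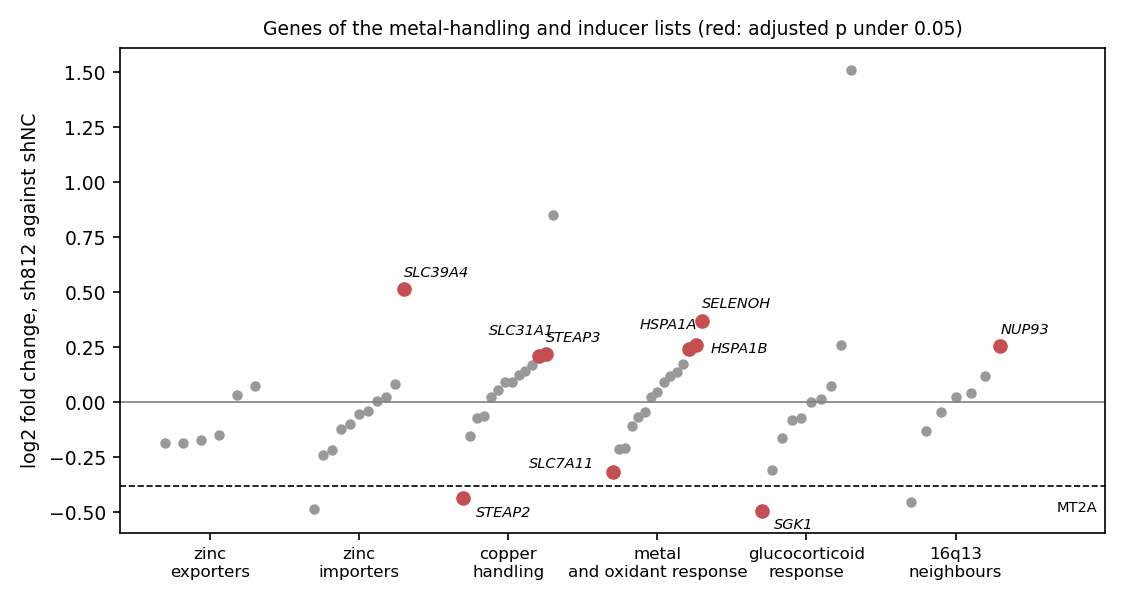
Log2 fold change (sh812 against shNC, vertical axis) of each tested gene of the 6 lists (horizontal axis); red points have an adjusted p under 0.05 and grey ones do not, and the dashed line is the value of MT2A. Of the 63 genes, 7 red points lie above 0 and 3 below, with SLC39A4 the highest red point at 0.51.

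Among the genes whose profile was most like that of MT2A were ENC1, ZNF678, SERPINB7 and CD59. Likeness was the root mean square difference of log2 CPM, centred per gene, over the 4 libraries, among 10835 other genes with a mean of at least 5 CPM. ENC1, an actin-associated protein gene, had 71.9 and 75.6 CPM in shNC and 56.2 and 57.2 CPM in sh812, a difference of 0.0025. The values were 0.0049 for ZNF678, 0.011 for SERPINB7 and 0.012 for CD59, the gene of a complement inhibitor. In all, 854 genes lay within 0.1 of MT2A, and the median gene was at 0.21, so 4 libraries do not single out a few genes.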

How the data were processed

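Gene expression was measured in 4 poly(A) RNA-seq libraries. Per the labels' protocols these were strand-marked (dUTP) paired-read libraries. The deposited table holds raw counts per gene that the authors had not normalized. Per the submitters' processing notes, fastp, STAR 2.7.1a, featureCounts, DESeq2 and the build hg38 were used; the annotation release, strand setting and treatment of multi-mapping reads are not given in the sources used here. Among counts of 1 to 20, 69.5% to 69.9% were even, so a count may be a read and not a pair, and low counts may hold fewer molecules.

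The test of the counts was that of edgeR 4.0.16 (R 4.3.3; filterByExpr, TMM, glmQLFit and glmQLFTest, prior count 0.125, no covariate), with Benjamini-Hochberg adjustment over 16802 genes and calls at an adjusted p under 0.05. SE was derived from the F statistic. CPM used TMM-adjusted library sizes, and intervals and floors cover counting error only. DESeq2 1.42.0, limma-voom (limma 3.58.1), other scalings and filters, a replicate block, left-out libraries and lowess removal (span 0.3) of length and GC trends were alternatives. Code was tested on simulated counts. Sequences came from GENCODE 29 and RefSeq; 16627 tested genes had a gene model. Named are the members, METTL3, SLC30A1, up to 4 called genes per list with the smallest p, and the 5 genes most like MT2A, of which 1 is not reported here; any further genes were picked with their values in view. The members and lists were chosen with earlier results of these data known.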

Additional observations from a re-analysis of the deposited data

How the results depend on the processing

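MT2A kept its direction and its adjusted p under 0.05 in all 15 alternatives, with log2 fold changes from -0.55 to -0.33, and in each of the 14 that recount calls 1 member was called lower and 0 higher. METTL3 ran from -2.52 to -2.33. MT1F, MT1X, MT1E, MT1M and MTF1 kept their sign in every alternative that gave them a value and passed the threshold in none. DESeq2 gave MT1E and MT1M no adjusted p, and a mean of at least 1 CPM left them untested. With library size alone, 561 genes were called higher and 1328 lower, against 912 and 910, and 3 genes of the fixed lists were higher and 5 lower, against 7 and 3. DESeq2 called 585 genes lower and 718 higher. Leaving out 1 library leaves a group with 1 sample, assumed to vary like the other group. Calls then ran from 261 (without sh812 replicate 1) to 1703 (without shNC replicate 2) higher and from 326 to 1549 lower, in the same order, and were 278 and 404 without sh812 replicate 2. List calls ran from 2 to 10 higher and from 0 to 4 lower. What caused these shifts was not tested. Called list genes that lost their adjusted p under 0.05 without sh812 replicate 1 were HSPA1A, HSPA1B, NUP93, SGK1, SLC31A1, SLC7A11, STEAP2 and STEAP3, and without sh812 replicate 2 HSPA1B, NUP93, SELENOH, SLC31A1, SLC7A11 and STEAP3. SLC31A1 also lost it without shNC replicate 1. STEAP3 lost it with DESeq2 and without a filter (adjusted p = 0.0580 and 0.0590). Replicate numbers are shared by the groups without a stated meaning, and libraries with the same number had deviations correlated at 0.016. With the replicate block, MT2A had -0.38, METTL3 -2.42, and 1003 genes were called higher and 998 lower, with no member's call changed. At 9 or fewer counts in sh812 (MT1E, MT1A and MT1G), depth allows no statement on change.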
